A study of Mus musculus with 4 samples.

Results

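Immediate-early and heat-shock genes are described here in single non-parenchymal cells of mouse liver, as 25 immediate-early and 10 heat-shock genes chosen by name out of 31053 measured genes. All 35 members were found once in the count tables, and all 35 passed the filter on low values in every comparison made. The mice were Col1a2-CreERT2; R26RtdTomato reporter animals, in which an inducible Cre driven by the collagen gene Col1a2 switches on a red fluorescent protein, so that the positive fraction should hold collagen-producing cells and their descendants. (The genotype field of the labels numbers the reporter locus differently in each library, which the design text does not.) Fatty liver injury was induced for 8 weeks by a methionine- and choline-deficient diet with 45% fat, with 0.1% L-methionine in the drinking water (MCDHF). Cells came from injured and from recovering livers and from a reporter-positive or reporter-negative fraction, with 1 library in each of the 4 groups. Every liver was dissociated in the same way, by perfusion with EGTA, Pronase (14 mg for each mouse) and Collagenase (3.7 U for each mouse), further enzyme digestion and a Nycodenz density gradient. No source used here gives the age and number of mice, the length of recovery, the use of tamoxifen or the time from perfusion to lysis. The positive injury library was not analysed here. The other 3 libraries are called positive recovery, negative recovery and negative injury.

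Immediate-early genes are transcribed within minutes of a stimulus without new protein synthesis, when kinase cascades activate factors already bound at their promoters, such as serum response factor and CREB. Their products include the AP-1 factors Fos and Jun, which go on to regulate later genes, and feedback inhibitors such as Dusp1, a phosphatase of MAP kinases, and Zfp36, which speeds the decay of short-lived mRNAs. Heat-shock genes encode chaperones that refold damaged proteins and are induced by heat-shock factor 1, which binds repeats of the letters GAA in alternating orientation. Both groups are known to be induced by enzymatic tissue dissociation, and immediate-early genes also by growth factors, cytokines and injury in living tissue.

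The promoters of the members were searched for the sites of these factors. RefSeq promoter sequences (GRCm38.p6) were held for 21 of 25 immediate-early and 7 of 10 heat-shock members, and the 250 bases before the start were read on both strands, where a gene with several starts counts if any of its windows holds the motif. Egr1, Cebpd, Myc, Ier2, Hspa8, Hsp90aa1 and Hsp90ab1 had no entry. Shares over all promoters count single windows, so a gene with several starts has more chances of a match than the share allows for. A heat-shock element was searched as a pair of GAA units in opposite orientation, GAANNTTC or TTCNNGAA. A match to this short form is called an element here, and its binding was not tested. It was found in 6 of the 7 heat-shock promoters (Dnaja1, Hspa1a, Hspa1b, Hspb1, Hspe1 and Hsph1) and in 1 of the 21 immediate-early promoters (Jun). The share over all 32851 promoters of the same length was 12.84%. The cAMP response element TGACGTCA stood in Btg2, Dusp1 and Ppp1r15a (1.546% of all promoters). The serum response factor site known as the CArG box was found in Zfp36 (1.467%), and the box TATAAA in Fos, Gadd45b and Gadd45g (12.37%). The AP-1 site TGACTCA was in none of the members' windows and in 4.463% of all promoters. Only exact matches within these 250 bases were searched. A promoter without a match may therefore still hold a variant or more distant site. The 130 bases next to the start are shown for 3 heat-shock genes with the element and for 3 immediate-early genes with the box TATAAA, a heat-shock element or a cAMP response element, with the motif in capitals.
Hspa1a: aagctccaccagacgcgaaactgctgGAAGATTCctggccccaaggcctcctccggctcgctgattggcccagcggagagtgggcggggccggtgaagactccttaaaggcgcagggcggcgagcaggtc
Hspa1b: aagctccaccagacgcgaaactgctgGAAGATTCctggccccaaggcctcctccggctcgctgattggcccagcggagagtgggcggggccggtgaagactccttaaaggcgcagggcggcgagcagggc
Hspb1: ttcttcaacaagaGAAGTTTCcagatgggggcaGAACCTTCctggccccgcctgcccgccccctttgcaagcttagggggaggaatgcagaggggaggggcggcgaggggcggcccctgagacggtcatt
Fos: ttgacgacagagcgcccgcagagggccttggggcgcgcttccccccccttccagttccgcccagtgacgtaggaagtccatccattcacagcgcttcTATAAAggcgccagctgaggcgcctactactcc
Jun: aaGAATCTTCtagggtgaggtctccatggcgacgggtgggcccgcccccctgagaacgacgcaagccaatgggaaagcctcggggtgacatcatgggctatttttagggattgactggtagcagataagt
Ppp1r15a: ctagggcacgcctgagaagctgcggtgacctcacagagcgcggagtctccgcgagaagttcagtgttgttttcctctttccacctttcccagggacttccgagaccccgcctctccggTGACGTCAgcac

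These windows lie at chr17:34972157-34972286 (Hspa1a), chr17:34959239-34959368 (Hspa1b), chr4:95052223-95052352 (Jun) and chr7:45526269-45526398 (Ppp1r15a) on the minus strand, and at chr5:135887789-135887918 (Hspb1) and chr12:85473760-85473889 (Fos) on the plus strand. In the same build, GENCODE M21 places the gene Hspb1 (ENSMUSG00000004951) at chr5:135887919-135889563, Ier3 (ENSMUSG00000003541) at chr17:35821684-35822923, Gadd45b (ENSMUSG00000015312) at chr10:80930073-80932204 and Myc (ENSMUSG00000022346) at chr15:61985391-61990374. The windows of Hspa1a and Hspa1b were identical at 129 of 130 bases, so the pair shares its element. Their transcripts in GENCODE M21 were identical at 85.54% of aligned positions, and at 52.82% over the last 300 bases, near which this 3' assay reads. No source used here says how reads of the pair were assigned, so the level of each gene alone is uncertain and the sum of both is given beside it.

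After filtering, 2380, 2949 and 5443 cells remained in positive recovery, in negative recovery and in negative injury, the order kept below. They held 31432462, 27200555 and 48622040 UMIs (unique molecular identifiers, one for each captured transcript), with medians of 11232, 8670 and 6849 a cell. Between 3 and 9 barcodes were shared by any pair of the 4 libraries. Cells were gated by at least 1 UMI of both genes of a pair, and of no other complete pair: Upk3b and Nkain4 for mesothelial cells, the lining of the liver surface; Kdr and Ptprb for endothelial cells; Epcam and Spp1 for bile duct cells; Lrat and Reln for stellate cells, the vitamin A-storing pericytes. The mesothelial gate held 1275, 67 and 255 cells, the endothelial gate 146, 2285 and 3571, the duct gate 25, 384 and 1024, and the stellate gate 143, 5 and 38. In every library the summed level of each list of 8 markers was highest in its own gate. The mesothelial gate also held the stellate list at 8964 to 9659 CPM, above its own list at 5337 to 6523 CPM, of which 8744 to 9304 CPM was Dcn, a matrix proteoglycan of many mesenchymal cells, while Lrat was at 0.820 to 3.92 CPM and Reln at 0 to 2.24. (CPM is UMIs per 1000000 UMIs of the group of cells.) Levels are given with exact Poisson 95% intervals in brackets, which cover counting error only. With 1 library in each group no difference has a replicate check and no test was made. Differences are therefore described as log2 ratios of CPM values with 10 added, and a gene is counted as higher or lower past 2-fold.

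Across whole libraries, the summed immediate-early level was 22679 (22627 to 22732) CPM in positive recovery, 20705 (20651 to 20759) in negative recovery and 28327 (28280 to 28374) in negative injury. The 10 heat-shock genes summed to 5886 (5859 to 5913), 4282 (4257 to 4306) and 5339 (5319 to 5360) CPM. The injury library was thus highest for the first group and the positive recovery library for the second. The libraries hold the gates in different shares, and the gates differed in their members.

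The AP-1 genes were abundant in all gates. Fos, whose protein pairs with Jun to form AP-1, stood at 3693, 3490 and 4612 CPM in mesothelial-gated cells and at 2367, 2020 and 2730 CPM in endothelial-gated cells. It was at 3166 and 3230 CPM in duct-gated cells of the 2 negative libraries, and at 1495 CPM in stellate-gated cells of positive recovery against 3088 CPM in those of negative injury. Jun was highest in duct-gated cells of negative recovery, at 4847 (4787 to 4908) CPM. Atf3, a stress-induced repressor of the same family of factors, differed most between gates: 1855 and 2799 CPM in duct-gated cells of the negative libraries and 683 to 1577 CPM in mesothelial-gated cells, but 110, 144 and 499 CPM in endothelial-gated cells.

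Among the other transcription factors, 2 Krüppel-like factors separated the gates by cell type. Klf2, a flow-responsive factor of endothelium, was at 1869 to 2025 CPM in endothelial-gated and 1118 to 1506 CPM in mesothelial-gated cells, against 64.1 to 89.6 CPM in duct-gated cells. Klf4, a close relative of Klf2, was likewise at 641 to 805 CPM in endothelial-gated and 860 to 940 CPM in mesothelial-gated cells against 44.6 to 60.6 CPM in duct-gated cells. Nr4a1, an orphan nuclear receptor, was at 235 to 703 CPM in mesothelial-gated cells and at 23.1 to 51.8 CPM in endothelial-gated cells. Cebpb, a factor of inflammatory and acute-phase genes, was at 685 to 1181 CPM in mesothelial-gated cells and 99.8 to 239 CPM in endothelial-gated cells. These gate differences were present in recovery and in injury alike.

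Among feedback and stress regulators, Socs3, an inhibitor of cytokine receptor signalling, and Gadd45g, a growth-arrest protein, were higher in endothelial-gated than in mesothelial-gated cells. Socs3 was at 590 to 1427 CPM in endothelial-gated and 211 to 290 CPM in mesothelial-gated cells, with 1526 CPM in stellate-gated cells of negative injury, and Gadd45g at 287 to 411 against 15.9 to 66.3 CPM. Ppp1r15a, which restarts translation after stress, was at 381 to 775 CPM in endothelial-gated and 80.4 to 228 CPM in mesothelial-gated cells. Btg2, an antiproliferative protein, went the other way, at 1719 to 2284 CPM in mesothelial-gated and 258 to 429 CPM in endothelial-gated cells.

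Of the heat-shock genes, Hspa8, the constitutive HSP70, and Hsp90ab1, the constitutive HSP90, were above 900 CPM in every gate and library. Hspa1a and Hspa1b, the stress-inducible HSP70 genes, summed to 487, 437 and 421 CPM in mesothelial-gated cells, 209, 297 and 448 CPM in endothelial-gated cells and 108, 164 and 117 CPM in duct-gated cells. Hspb1, a small chaperone that binds unfolded proteins and actin, was the most cell-type dependent of the 10: 1835, 1076 and 1943 CPM in mesothelial-gated cells, and 126 to 154 CPM in endothelial-gated cells. Hsph1, an HSP110 nucleotide exchange factor, was at 20.3 to 48.8 CPM in every gate and library. In small groups, such as the mesothelial-gated cells of negative recovery, its ratios therefore rest on few UMIs.

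**Figure D1:**
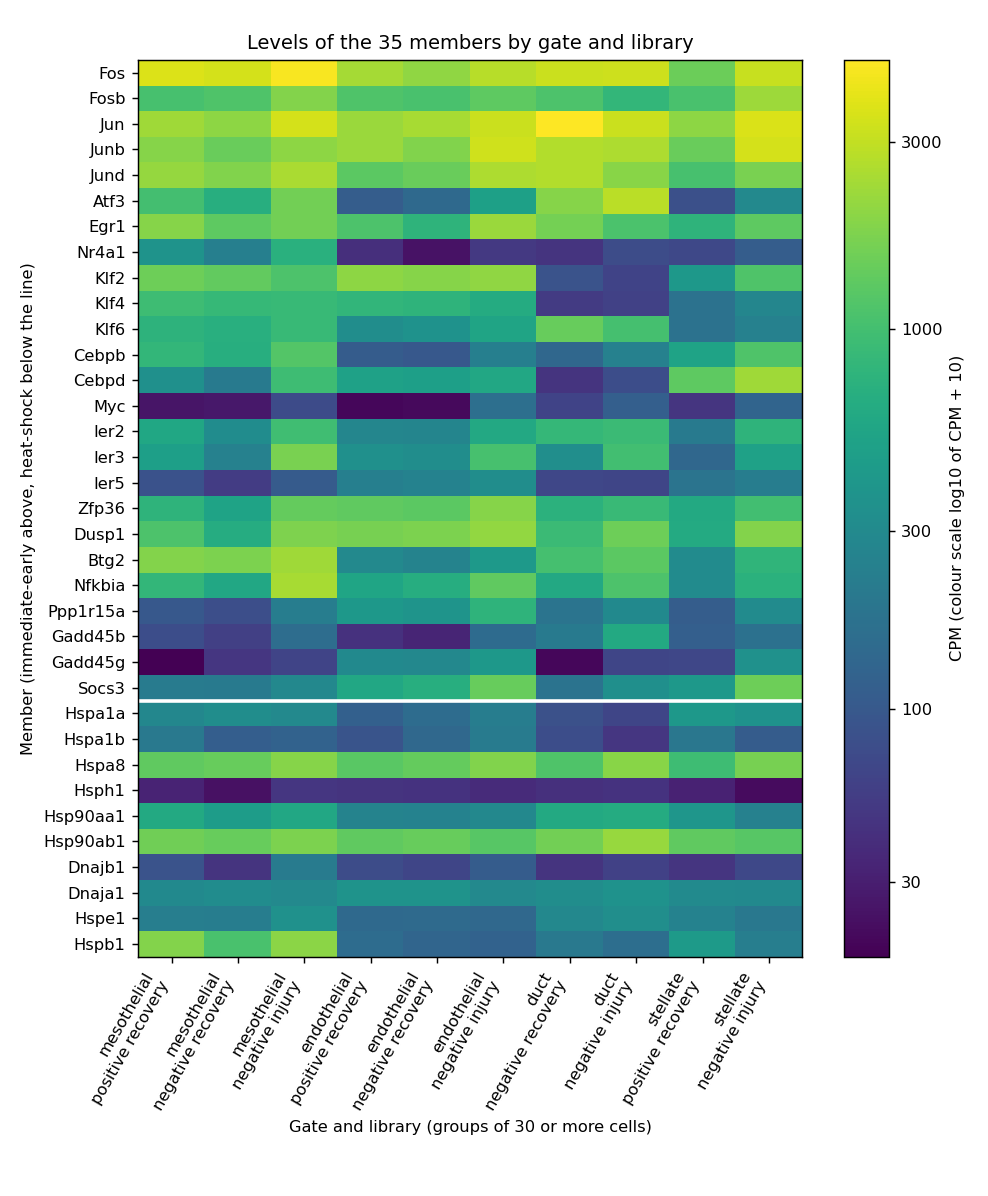
Level of each of the 35 genes in CPM (colour, log scale of CPM with 10 added) for each gate and library with at least 30 cells, immediate-early genes above and heat-shock genes below the white line. Atf3, Klf2, Klf4, Btg2 and Hspb1 differ between gates in all libraries, while Myc, Ier3 and Gadd45b are brighter in negative injury than in negative recovery in the mesothelial, endothelial and duct gates.

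The negative recovery and negative injury libraries differ in stage within the same fraction. Each stage is 1 library, so stage cannot be told apart from differences in handling between the preparations. Immediate-early genes were lower in recovery: 7 of 25 were lower past 2-fold over all cells, 11 in mesothelial-gated, 9 in endothelial-gated and 3 in duct-gated cells, and 0 were higher in any of these. Over all genes counted, the share lower past 2-fold was 3.4% over all cells, 2.64% in mesothelial-gated, 2.78% in endothelial-gated and 2.11% in duct-gated cells, and the share higher was 1.53%, 2.51%, 0.795% and 0.864%. The median log2 ratio of the 25 genes was -0.50, -0.78, -0.78 and -0.35 in that order, against 0.11, 0.10, 0.17 and 0.07 for all genes. Of the 10 heat-shock genes only Dnajb1 in mesothelial-gated cells was lower past 2-fold, 0 were higher, and the medians were -0.29, -0.36, -0.05 and -0.10. The stellate gate was not compared, as negative recovery held 5 such cells.

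In endothelial-gated cells the difference was broad. The summed immediate-early level was 19494 (19432 to 19556) CPM in recovery and 30488 (30416 to 30561) CPM in injury, a log2 ratio of -0.65. Myc, a growth factor-induced regulator of proliferation, had the lowest ratio of the 25, at 19.8 (17.9 to 21.9) against 166 (161 to 172) CPM (-2.57). Gadd45b, a stress sensor downstream of NF-kappaB and TGF-beta, was at 34.3 against 153 CPM (-1.88), and Atf3 at 144 (138 to 149) against 499 (490 to 509) CPM (-1.73). Ier3, an NF-kappaB target with roles in cell survival, was at 329 against 1041 CPM (-1.63), and Egr1, a zinc-finger factor that follows MAP kinase signalling, at 773 (761 to 786) against 2211 (2191 to 2231) CPM (-1.50). Cebpb (-1.18), Ier2 (-1.12), Socs3 (-1.05) and Ppp1r15a, at 381 against 775 CPM, complete the 9. Fos and Jun were nearer, at -0.43 and -0.39, while Klf2 was almost level at 1869 against 2025 CPM (-0.12).

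The chaperones of endothelial-gated cells summed to 4145 (4117 to 4174) CPM in recovery and 4482 (4454 to 4510) CPM in injury, a log2 ratio of -0.11. Members pointed both ways. The inducible HSP70 pair was lower in recovery, with Hspa1a at 155 against 230 CPM (-0.54), Hspa1b at 143 against 219 CPM (-0.58) and their sum at 297 against 448 CPM, and so were Hspa8 (-0.37) and the J-domain co-chaperone Dnajb1 (-0.63). Dnaja1, another J-domain co-chaperone, was higher at 370 against 297 CPM (0.31), as was Hsp90ab1 (0.22), while Hsp90aa1, the inducible HSP90, was at 256 against 287 CPM (-0.16). The injury cells also differed in depth and in other lists: median UMIs were 6152 in injury and 8428 in recovery, the 8 endothelial markers summed to 12245 and 17022 CPM, and the 8 hepatocyte markers to 545 and 145 CPM. The count of immediate-early genes lower past 2-fold was again 9 after every cell was thinned to 2000 UMIs, and 9 in cells with a UMI of Stab2, a receptor of sinusoidal endothelium. The part of the marker differences in the result was not tested.

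Mesothelial-gated cells had the largest number of lower genes, although the recovery side rests on 67 cells. The immediate-early sum was 20474 (20221 to 20730) CPM in recovery and 34624 (34463 to 34786) CPM in injury (-0.76). Ier3 led, at 248 (221 to 277) against 1669 (1634 to 1705) CPM (-2.70), followed by Cebpd, an acute-phase factor, at 213 against 950 CPM (-2.10) and Nfkbia, the NF-kappaB inhibitor that NF-kappaB itself induces, at 587 against 2427 CPM (-2.03). Ier2 and Nr4a1 were at -1.54 each, Zfp36, Dusp1 and Ppp1r15a at -1.40 each, and Gadd45b, Myc and Atf3 at -1.28, -1.24 and -1.20. Feedback and stress regulators, which are 11 of the 25 members, held 7 of the 11 lower genes. Other transcription factors held 3, out of 8 members, and AP-1 factors 1, out of 6. The feedback and stress regulators summed to 4512 against 11331 CPM (-1.33). AP-1 factors summed to 10571 against 15926 CPM (-0.59), with Jun at -0.77 and Fos at -0.40, and Egr1 was at -0.28.

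Heat-shock genes of mesothelial-gated cells summed to 5466 (5336 to 5599) CPM in recovery and 7464 (7389 to 7539) CPM in injury (-0.45). Dnajb1, the HSP40 partner of inducible HSP70, stood apart at 46.8 (35.4 to 60.6) against 218 (206 to 232) CPM (-2.01), and a count of 2 in place of 1 was reached with 1 CPM added or with libraries scaled by trimmed means or by median of ratios. Hspb1 was at 1076 against 1943 CPM (-0.85), Hsph1 at 23.0 (15.3 to 33.2) against 48.8 (43.0 to 55.3) CPM (-0.84), Hspa8 at -0.38 and Hsp90aa1 at -0.34. The inducible pair did not share this: Hspa1a was at 0.13, Hspa1b at -0.14, and their sum at 437 (400 to 475) against 421 (403 to 439) CPM, intervals that overlap. Cells of the injury gate were deeper, with a median of 20177 UMIs against 15749. Leukocyte markers summed to 978 and 949 CPM, nearly all of it Cd74, with Ptprc at 0 in both libraries.

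Duct-gated cells showed a split among the immediate-early genes and almost equal sums, at 24870 (24733 to 25007) CPM in recovery and 25337 (25258 to 25416) CPM in injury (-0.03). Ier3 at 333 against 983 CPM (-1.53), Gadd45b at 214 against 615 CPM (-1.48) and Gadd45g at 18.5 (14.9 to 22.6) against 67.0 (63.1 to 71.2) CPM (-1.44) were lower past 2-fold, with Socs3 (-0.89), Nfkbia (-0.89) and Atf3 (-0.59) in the same direction. The count of 3 was 5 with scaling by trimmed means (TMM) or by median of ratios and 7 after thinning each cell to 2000 UMIs. AP-1 factors as a sum went the other way, 16279 against 14484 CPM (0.17), led by Jun at 4847 (4787 to 4908) against 3178 (3150 to 3206) CPM (0.61). Egr1 was higher in recovery as well, at 1626 against 1083 CPM (0.58), and Fos was level at 3166 against 3230 CPM (-0.03). Heat-shock genes summed to 4404 against 5807 CPM (-0.40), which came mostly from the constitutive genes Hspa8 (1136 against 1914 CPM, -0.75) and Hsp90ab1 (1578 against 2174 CPM, -0.46). Hspa1a (0.28), Hspa1b (0.58) and Hspb1 (0.31) were higher in recovery, Hsp90aa1 was at -0.04 and Dnajb1 at -0.34. Hepatocyte markers summed to 7646 and 11376 CPM in these gates, led by Alb at 4933 and 6368 CPM, and their part in the result was not tested.

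Over all cells of the 2 negative libraries the 7 lower genes were Gadd45b (-1.96), Myc (-1.85), Ier3 (-1.66), Nr4a1 (-1.58), Atf3 (-1.37), Cebpb (-1.30) and Nfkbia (-1.07). Egr1 was at -0.75, Fos at -0.38 and Jun at -0.09. Gadd45b and Ier3 were lower past 2-fold in the 3 gates compared as well. Klf2 (0.34) and Klf4 (0.47) were higher in recovery over all cells. Endothelial-gated cells were 77.5% of the cells in negative recovery and 65.6% in negative injury. Within them Klf2 was almost level, as given above, while Klf4 was higher in recovery (0.25). The part of makeup in the ratios over all cells was not tested. Of the chaperones, Hspb1 had the lowest ratio (-0.82), then Dnajb1 (-0.68) and Hspe1, the mitochondrial HSP10 (-0.49), with Hspa8 at -0.45, Hsp90aa1 at -0.40, Hspa1a at -0.19 and Hspa1b at -0.09. A scaling by trimmed means moved all ratios by -0.13 over all cells, -0.18 in mesothelial-gated, -0.19 in endothelial-gated and -0.14 in duct-gated cells, so the small differences named here depend on the scale.

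**Figure D2:**
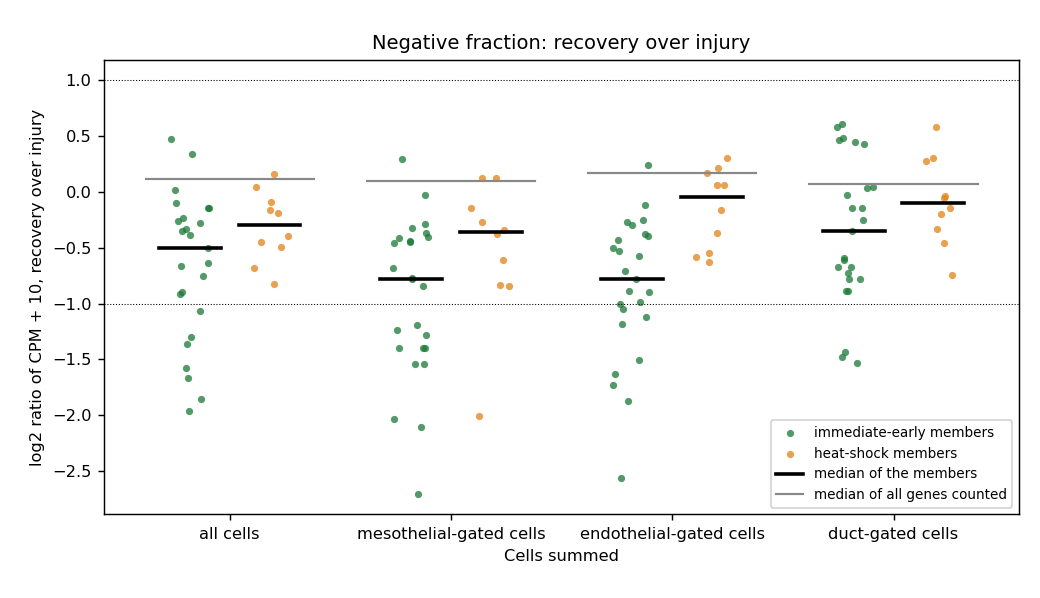
Log2 ratio of negative recovery over negative injury for each of the 35 genes over all cells and in the mesothelial, endothelial and duct gates, with 10 CPM added and dashed lines at 2-fold. Immediate-early genes lie mostly below 0 in the mesothelial and endothelial gates, with Ier3 and Gadd45b below the 2-fold line in every set, and heat-shock genes lie between the dashed lines except Dnajb1 in mesothelial-gated cells.

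The wider lists were counted in the same negative libraries and are no independent check. Like the members, they were chosen with earlier results of these data known. Of 30 other immediate-early genes, 27 were counted over all cells and 4 were lower past 2-fold in recovery, with 8 of 27 in mesothelial-gated, 7 of 26 in endothelial-gated and 3 of 25 in duct-gated cells, and 0 higher. Tnfaip3, a deubiquitinase induced by NF-kappaB, was at 13.9 against 311 CPM in mesothelial-gated cells (-3.75) and at 46.4 against 402 CPM in endothelial-gated cells (-2.87). Csrnp1, an AXIN1-induced nuclear protein, was at 82.5 against 381 CPM in endothelial-gated and 50.3 against 231 CPM in duct-gated cells, and the small Maf factor Maff at -1.99 in mesothelial-gated and -1.14 in duct-gated cells. Of 20 other heat-shock genes, 0 of 20 over all cells, 1 of 18 in mesothelial-gated, 0 of 19 in endothelial-gated and 0 of 19 in duct-gated cells were lower past 2-fold, and 0 were higher. The 1 was the small heat-shock gene Hspb8, at 20.5 against 51.2 CPM. In endothelial-gated cells Fkbp4 (0.76) and Ahsa1 (0.60), both HSP90 co-chaperones, had the largest ratios of that list and were higher in recovery.

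The positive and negative recovery libraries differ in reporter fraction at the same stage, again with 1 library for each. Over all cells 3 immediate-early genes were higher and 3 lower past 2-fold in the positive fraction, while 8.99% of all genes were higher and 10.4% lower. Nr4a1 was at 298 against 40.3 CPM (2.62), Cebpb at 726 against 145 CPM (2.25) and Btg2 at 1464 against 509 CPM (1.51), and Gadd45g at 48.1 against 216 CPM (-1.96), Ppp1r15a at 135 against 320 CPM (-1.19) and Socs3 at 262 against 551 CPM (-1.05). Fos (0.47), Egr1 (0.73) and Atf3 (0.53) were within 2-fold, as was Jun (-0.39). Of the heat-shock genes Hspb1 was higher past 2-fold, at 1434 against 202 CPM (2.77). Hspa1a (0.77), Hsp90aa1 (0.68) and Hspa1b (0.49) were higher within 2-fold, with Dnajb1 at 0.32, Hspe1 at 0.31 and Hspa8 at -0.06. These libraries differ in makeup, since 1275 of 2380 positive and 67 of 2949 negative cells were mesothelial-gated. Nr4a1, Cebpb, Btg2 and Hspb1 were also the genes with the higher mesothelial level above, and Gadd45g, Ppp1r15a and Socs3 those with the higher endothelial level. The part of makeup in these ratios was not tested.

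Within gates the fractions were closer. In mesothelial-gated cells 0 immediate-early genes were higher (1.62% of all genes) and 1 was lower (0.124% of all genes), and 0 heat-shock genes were past 2-fold. The 1 was Gadd45g, at 15.9 (14.2 to 17.6) against 49.2 (37.6 to 63.4) CPM (-1.20). The count of 1 was 0 with 50 CPM added or with cells weighted equally, and 2 after thinning, when 1 heat-shock gene was past 2-fold. Ier3 at 490 against 248 CPM (0.96), Ier2 (0.82), Dusp1 (0.74) and Cebpd (0.69) were higher in the positive fraction, with Atf3 at 0.54, Egr1 at 0.50, Jun at 0.19 and Fos at 0.08. Of the chaperones, Hspa1b was at 203 (197 to 210) against 112 (94.4 to 133) CPM (0.80) and Hspa1a at 283 against 324 CPM (-0.19), while the sum of both was 487 (478 to 496) against 437 (400 to 475) CPM. Dnajb1 (0.80), Hspb1 (0.76) and Hsph1 (0.41) were higher as well, with Hsp90aa1 at 0.39 and Hspa8 at -0.10. The medians of the 25 and the 10 genes were 0.29 and 0.25, against -0.00072 for all genes.

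In endothelial-gated cells 0 of the 35 were past 2-fold in either direction, against 0.963% of all genes higher and 0.0793% lower, and the medians were 0.07 for immediate-early, -0.01 for heat-shock and -0.01 for all genes. Nr4a1 (0.65) and Egr1 (0.54) had the largest ratios in size, then Atf3 (-0.36), Junb (0.32), Gadd45b (0.31) and Nfkbia (-0.29), with Fos at 0.23, Socs3 at -0.21 and Jun at -0.16. With cells of several gates kept, 3 immediate-early genes and 1 heat-shock gene were past 2-fold here. Hspa1a was at -0.36, Hspa1b at -0.60, Hspb1 at 0.21, Dnajb1 at 0.18, Hspa8 at -0.14, Hsp90ab1 at -0.10 and Hsp90aa1 at 0.01. The summed immediate-early level of endothelial-gated cells was thus 20295 (20047 to 20545) CPM in positive recovery and 19494 (19432 to 19556) CPM in negative recovery, both below 30488 CPM in negative injury. Both comparisons share the negative recovery library. The duct gate (25 positive cells) and the stellate gate (5 negative cells) were not compared.

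**Figure D3:**
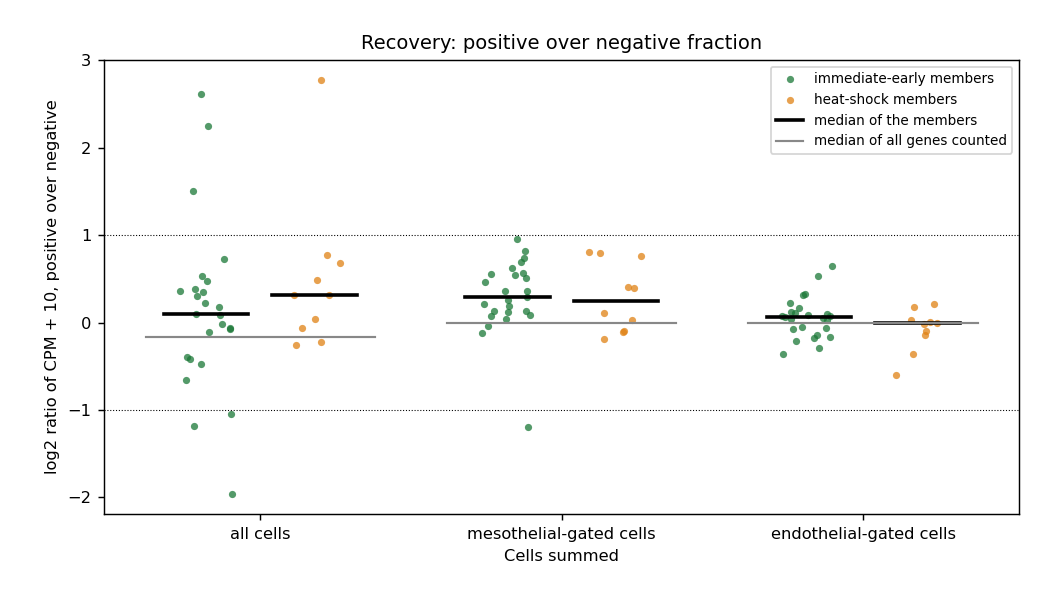
Log2 ratio of positive over negative recovery for each of the 35 genes over all cells and in the mesothelial and endothelial gates, with 10 CPM added and dashed lines at 2-fold. Nr4a1, Cebpb, Btg2 and Hspb1 lie above and Gadd45g, Ppp1r15a and Socs3 below the 2-fold lines over all cells, whereas within the gates only Gadd45g in mesothelial-gated cells is past one.

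Stellate-gated cells were held by positive recovery (143 cells) and negative injury (38 cells), groups that differ in stage and in fraction, which cannot be told apart here. The immediate-early sum was 13729 (13558 to 13901) CPM in the first and 29252 (28750 to 29761) CPM in the second, while the heat-shock sum was 4387 (4291 to 4485) and 4413 (4219 to 4613) CPM, intervals that overlap. Fos was at 1495 and 3088 CPM, Socs3 at 411 and 1526 CPM and Ier2 at 215 and 769 CPM, and the pair Hspa1a and Hspa1b summed to 611 and 470 CPM.

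The share of a cell's UMIs that came from the 25 immediate-early genes varied widely between cells of 1 gate and library. To set cells of different depth side by side, each cell was thinned to 2000 UMIs, and cells with fewer (78 of 2285 and 200 of 3571 endothelial-gated cells of the negative libraries) were left out. In endothelial-gated cells of negative recovery the median share was 1.75%, with quartiles of 0.9% and 2.65%, and in negative injury 3.05%, with quartiles of 2.2% and 3.8%. The upper quartile of recovery thus lay below the median of injury. Without thinning the medians were 1.76% and 3.05%. Mesothelial-gated cells had medians of 2.25%, 2.1% and 3.38%, which were 2.11%, 2.06% and 3.40% unthinned. In duct-gated cells the medians of the negative libraries were 2.5% and 2.45%, with quartiles of 1.25% and 3.3% in recovery and of 1.2% and 3.8% in injury (unthinned medians 2.39% and 2.42%). Stellate-gated cells were at 1.02% in positive recovery and 3.2% in negative injury (1.01% and 3.02% unthinned). Heat-shock shares were lower: medians were 0.4% and 0.4% in endothelial-gated cells of the negative libraries, 0.4% and 0.55% in duct-gated cells and 0.55%, 0.55% and 0.7% in mesothelial-gated cells.

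**Figure D4:**
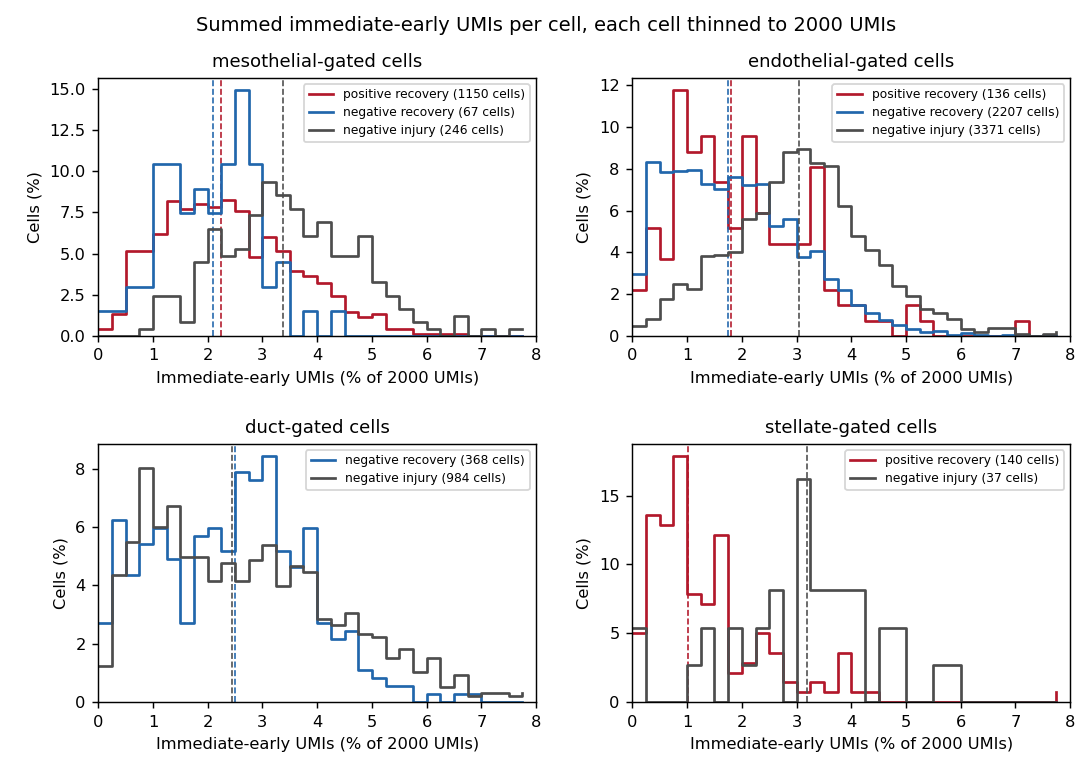
Distribution over cells of the percent of a cell's UMIs from the 25 immediate-early genes after thinning to 2000 UMIs, by gate and library (groups of at least 30 cells), where cells above 8% are placed in the last bin. Endothelial-gated and mesothelial-gated cells of negative injury lie to the right of the recovery libraries, and duct-gated cells of both negative libraries spread over the same range.

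In most groups the immediate-early and heat-shock sums varied little together from cell to cell. Across thinned cells of 1 gate and library, Spearman's rho between both sums was -0.01 in 2207 endothelial-gated cells of negative recovery, 0.01 in 3371 of negative injury, -0.13 in 984 duct-gated cells of negative injury and -0.04 in 246 mesothelial-gated cells of negative injury. It was 0.12 in 67 mesothelial-gated and 0.095 in 368 duct-gated cells of negative recovery. In positive recovery it was -0.04 in 136 endothelial-gated, 0.095 in 140 stellate-gated and 0.30 in 1150 mesothelial-gated cells. Cells of a group share 1 library and digestion, and both sums are parts of the same 2000 UMIs, so the values are descriptions. The heat-shock sum is small, with a median of 0.4% of UMIs in endothelial-gated cells of negative recovery, so counting error can hide covariation. In the positive mesothelial cells both sums also went with depth (rho 0.27 and 0.19). Immediate-early sums were lower in cells with more mitochondrial UMIs in all 9 groups of at least 50 cells, with rho from -0.41 to -0.10.

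Within the immediate-early group members differed in how far they moved together from cell to cell. The rho of Fos with the sum of the other 24 was 0.76 in endothelial-gated cells of negative recovery and 0.71 in duct-gated cells of negative injury, and that of Junb was 0.70 and 0.75. Zfp36 and Dusp1 were similar in endothelial-gated cells of negative recovery, at 0.70 and 0.65. Myc (0.08), Gadd45b (0.06) and Cebpb (0.10) were near 0 in those cells, and these were among the genes with the lowest stage ratios there. Their mean counts were low, at 0.0381 UMIs of Myc, 0.0639 of Gadd45b and 0.192 of Cebpb in each thinned cell, against 3.87 of Fos. Atf3 was at 0.79 in duct-gated cells of negative injury but at 0.32 in endothelial-gated cells of that library. Of the heat-shock genes, Hspb1 in mesothelial-gated cells of positive recovery had a rho of 0.39 with the immediate-early sum, and Hspa1a and Hspa1b had 0.01 each in those cells.

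**Figure D5:**
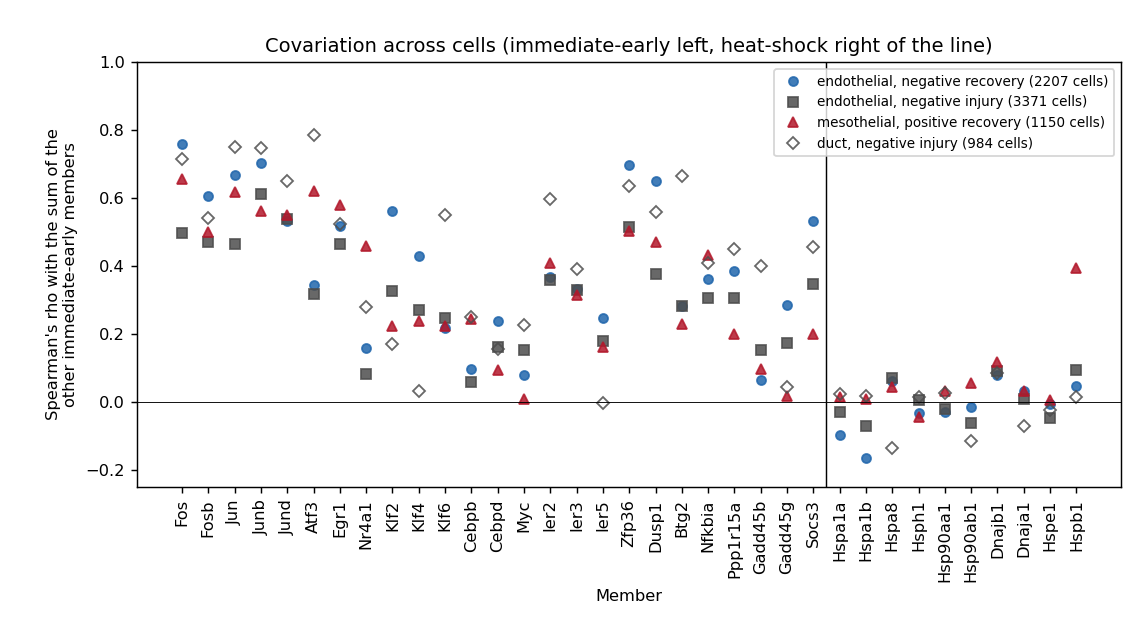
Spearman's rho across cells, thinned to 2000 UMIs each, of each gene with the sum of the immediate-early genes (leaving out itself), for 4 gates and libraries. Fos, Jun, Junb and Zfp36 lie between 0.47 and 0.76 in all 4, Myc and Cebpb at or below 0.25, and heat-shock genes between -0.16 and 0.12 except Hspb1 in mesothelial-gated cells of positive recovery.

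Within the mesothelial-gated cells of positive recovery, the 363 cells with a UMI of Osr1, the transcription factor named in the study's title, were set beside the 912 without one. The cells with Osr1 were deeper, with a median of 16378 UMIs against 13850, and the part of depth in this split was not tested. Their immediate-early sum was 29417 against 22209 CPM and their heat-shock sum 8336 against 5491 CPM. Ier2 at 952 against 379 CPM (1.31) and Dusp1 at 1712 against 784 CPM (1.12) were the 2 of 25 higher past 2-fold, and Hspb1 at 3123 against 1157 CPM (1.42) the 1 of 10, where 3.12% of all genes were higher and 1.8% lower. Zfp36 (0.88), Ier3 (0.85), Atf3 (0.79), Jun (0.59), Egr1 (0.46) and Fos (0.30) were higher within 2-fold, as were Dnajb1 (0.82), Hspa1b (0.63), Hspa1a (0.37), Hsp90aa1 (0.31) and Hspa8 (0.22). Btg2 (-0.28), Myc (-0.29) and Klf6 (-0.18) pointed the other way. The medians were 0.41 and 0.38 for the 25 and the 10 genes and 0.01 for all genes.

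Within the endothelial-gated cells of negative injury, the 1440 cells with a UMI of Selp, an adhesion receptor for leukocytes, were set beside the 2131 without one, with median depths of 6984 and 5492 UMIs. The immediate-early sums were 31492 and 29617 CPM, and 0 of 25 genes were past 2-fold, with a median of 0.10 against -0.00425 for all genes. Cebpb at 310 against 177 CPM (0.78), Ier3 at 1337 against 784 CPM (0.76), Nfkbia (0.46), Myc (0.43) and Socs3 (0.40) had the largest ratios, while Atf3 (0.23), Jun (0.14), Egr1 (-0.0029) and Fos (-0.04) were closer. Hspb1 was the 1 heat-shock gene higher past 2-fold, at 186 against 73.1 CPM (1.24), where 0.54% of all genes were higher and 0.144% lower. Hspa1a was at 0.39, Dnajb1 at 0.31, Hspa1b at 0.29, Hsp90ab1 at 0.27, Hsp90aa1 at 0.23 and Hspa8 at 0.14. Hspb1 was thus the chaperone with the largest ratio in both splits of cells within a library.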

How the data were processed

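Droplet 3' libraries of liver cells were deposited as matrices of UMI counts for each gene and barcode, which per the file headers came from matrix software 3.1.0. The submitters' processing notes name fastp (with versions read as 1 and 2.5.3a), featureCounts 1.6.2 and the genomes mm10 and GRCh38. No aligner was listed by name among these tools, and no source used here gives the authors' rule for calling cells. Counts were used as deposited. Barcodes below 500 UMIs, below 300 genes or above 20% mitochondrial UMIs were dropped, and cells called doublets by Scrublet (scanpy 1.11.5) were removed, 108, 6 and 5 in positive recovery, negative recovery and negative injury. In both negative libraries the caller marked too few cells to have worked, so doublets remain there. Cells matching several gates (126, 67 and 180) and none (665, 141 and 375) were in no gate. Counts were summed over cells and divided by the summed total (CPM). A gene was counted with at least 10 CPM in 1 group and at least 10 UMIs over both, and comparisons needed 30 cells on each side. Each group has 1 library, so no p-value was computed. The ratios were tested on simulated Poisson counts with known folds, which hold counting error only and no differences between preparations. Alternatives were other added constants, TMM (edgeR 4.0.16) and median-of-ratios (DESeq2 1.42.0) scaling, no filter on low values, other gates, doublet and mitochondrial limits, equal weight for each cell and thinning.

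The members and lists were chosen with earlier results of these data known. For log2 ratios between 2 libraries the text names Fos, Jun, Egr1, Atf3, Hspa1a, Hspa1b, Hspa8 and Hsp90aa1. The 5 other immediate-early and 3 other heat-shock members of the largest absolute ratio are named with them. Genes of the wider lists are named in some comparisons only, from the 2 of the largest absolute ratio in each list. In the splits by Osr1 and Selp, further members were chosen after their values were seen. Other members past 2-fold, and those whose levels are given by gate, were named after their values were seen.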

Additional observations from a re-analysis of the deposited data

Results flagged for a closer look

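Some members pointed in opposite directions under the same contrast in 2 gates, with ratios at least 2-fold apart and counting intervals of the levels that did not overlap. The differences between gates were not tested, as each group is 1 library. Between negative recovery and negative injury, the log2 ratio in mesothelial-gated cells minus that in duct-gated cells was -1.1255 for Fosb (-0.68 and 0.45), -1.3815 for Jun (-0.77 and 0.61) and -1.1531 for Hspb1 (-0.85 and 0.31). The ratio in endothelial-gated minus duct-gated cells was -2.0845 for Egr1 (-1.50 and 0.58), -1.257 for Jund (-0.78 and 0.48), -1.165 for Hspa1b (-0.58 and 0.58) and -1.0386 for Klf6 (-0.57 and 0.47). For Hsph1 the difference was between mesothelial-gated and endothelial-gated cells, at -1.0053 (-0.84 and 0.17). Thus 7 of these 8 set the duct gate, with the higher value in recovery, against another gate. Between positive and negative recovery, Hspa1b was 1.399 apart between mesothelial-gated (0.80) and endothelial-gated cells (-0.60), and the level of Hspa1b alone is uncertain beside that of Hspa1a.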

How the results depend on the processing

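Of 174 counts of members past 2-fold recomputed under 13 other settings for 14 results, 162 stayed within 1.5 times the count reported and 12 did not. The 162 include results with a count of 0 that stayed at 0, and higher and lower genes were counted together. In mesothelial-gated cells the count of heat-shock genes past 2-fold between the negative libraries was 2, not 1, with 1 CPM added, with TMM scaling and with median-of-ratios scaling. In duct-gated cells the count of immediate-early genes lower in recovery was 5, not 3, with TMM and with median-of-ratios scaling, and 7 after thinning each cell to 2000 UMIs. Between the fractions, mesothelial-gated cells had 0 immediate-early genes past 2-fold, not 1, with 50 CPM added and with cells weighted equally, and 2 after thinning, when 1 heat-shock gene was past 2-fold, not 0. Keeping cells of several gates gave 3 immediate-early genes and 1 heat-shock gene past 2-fold between the fractions in endothelial-gated cells, not 0 and 0. The causes were not tested. The stage counts of 9 in endothelial-gated and 11 in mesothelial-gated cells ranged from 7 to 12 and from 9 to 11. Of 174 list medians recomputed, 139 moved by less than the members' median counting error of a ratio and 35 by more. For immediate-early genes between the negative libraries they ranged from -0.76 to -0.49 over all cells, -0.95 to -0.71 in mesothelial-gated, -0.98 to -0.64 in endothelial-gated and -0.48 to -0.32 in duct-gated cells. For heat-shock genes they ranged from -0.41 to -0.26, -0.53 to -0.34, -0.24 to -0.04 and -0.23 to -0.06. Between the fractions, the immediate-early median over all cells ranged from -0.03 to 0.28. Restricting endothelial-gated cells to those with a Stab2 UMI, chosen after seeing the data, left the 4 counts at 9, 0, 0 and 0. No paired analysis was possible because each group has 1 library and the labels carry no replicate numbers.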

Other observations

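Genes of the endoplasmic reticulum stress response, a different pathway for misfolded proteins than that of the cytosolic chaperones, were within 2-fold throughout. Of 12 such genes 11 were counted, and 0 of 11 were past 2-fold in any of the 7 comparisons. In mesothelial-gated cells Hspa5, the chaperone of that compartment, was at 965 CPM in negative recovery and 1738 CPM in negative injury (-0.84) and its cofactor Sdf2l1 at 81.2 and 160 CPM (-0.90), while in endothelial-gated cells the largest ratios were Ddit3 (-0.73) and Atf4 (-0.66). Over all cells, positive against negative recovery, the largest were Sdf2l1 (0.99) and Manf (0.72).

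The gates left out 27.9%, 4.78% and 6.89% of the cells in positive recovery, negative recovery and negative injury, since these lacked every complete gene pair. Their median depth was 1512, 873 and 1873 UMIs, and of the 665, 141 and 375 cells 354, 110 and 193 had too few UMIs to be thinned to 2000. Among the rest the median immediate-early share was 1.0%, 0.35% and 1.35% of UMIs, with unthinned medians over all such cells of 1.06%, 1.02% and 2.32%. Heat-shock medians were 0.4%, 0.5% and 0.5% after thinning.

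Sgk1, a kinase of the wider immediate-early list, had the largest ratio of that list between the fractions over all cells, at 142 CPM in positive and 839 CPM in negative recovery (-2.48), and Nr4a3 went the other way, at 31.8 and 3.12 CPM (1.67). Hspb8 and Cryab, small heat-shock genes like Hspb1, were at 78.6 and 4.89 CPM (2.57) and at 344 and 100 CPM (1.68). Within mesothelial-gated cells Hspb8 was at 99.5 and 20.5 CPM (1.84) and Tnfaip3 at 56.7 and 13.9 CPM (1.48).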
